A study of Mus musculus with 8 samples.

Results

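The genes of 9 transcription factors of the cerebellar granule cell lineage are described here through a histone mark around them: *Pax6*, *Meis1*, *Neurod1*, *Neurod2*, *Etv1*, *Atoh1*, *Barhl1*, *Barhl2* and *Insm1*. They are 9 of 21887 protein-coding genes in the gene table used, and were chosen by name as factors known from the lineage. Any peak that overlapped one of these genes or lay within 10 kb of either end was assigned to it, which gave 117 peaks, 87 on a gene and 30 in a flank. The mark was acetylation of histone H3 at lysine 9 (H3K9ac), mapped in whole cerebella by chromatin immunoprecipitation and sequencing (ChIP-seq). There were 4 libraries from heterozygous SCA7 266Q knock-in mice, which were symptomatic, and 4 libraries from their wild type litter mates. All mice were C57BL/6 and 9 weeks old, and none of the labels names a treatment. SCA7 is an ataxia caused by an expanded glutamine tract, here labelled as 266 glutamines. The labels name whole cerebellum and no cell sort, so a peak can come from any cerebellar cell type, and fewer cells of a type cannot be told apart from less of the mark per cell.

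Granule cells are the most numerous neurons of the cerebellum. Their progenitors arise in the rhombic lip under the proneural factor Atoh1, divide in the external granule layer, and switch to factors such as Neurod1 as they leave the cell cycle and move inward. By the age of these mice the external layer is gone, so the progenitor program is known mainly from earlier development. H3K9ac is laid down at promoters and enhancers of transcribed genes, and often spreads over the first part of the gene. For the contrast of the stages, *Pax6*, *Meis1*, *Neurod1*, *Neurod2* and *Etv1* were taken as the 5 factors of mature granule cells and *Atoh1*, *Barhl1*, *Barhl2* and *Insm1* as the 4 progenitor factors. The split is a simplification, since *Pax6*, *Meis1* and *Barhl1* are known from both stages.

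The upstream sequences of 5 start sites are shown because the peaks treated them differently. No library had a peak at *Atoh1*, every long list covered the whole *Barhl2* sequence, and for *Neurod1*, *Neurod2* and the inner *Pax6* start site the covered part varied between the long lists. Each sequence is the 250 bases before the start site, read 5′ to 3′ on the gene's strand, from RefSeq promoter records on the mm10 build (GRCm38.p6). Capitals mark E-boxes, the letters CANNTG that basic helix-loop-helix factors such as Atoh1, Neurod1 and Neurod2 are known to bind.
Atoh1, chr6:64728875-64729124, plus strand: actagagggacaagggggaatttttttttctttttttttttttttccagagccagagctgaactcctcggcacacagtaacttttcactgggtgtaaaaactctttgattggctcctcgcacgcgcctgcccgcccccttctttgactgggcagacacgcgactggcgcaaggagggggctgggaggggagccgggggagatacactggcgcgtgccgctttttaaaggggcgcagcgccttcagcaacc
Barhl2, chr5:106458167-106458416, minus strand: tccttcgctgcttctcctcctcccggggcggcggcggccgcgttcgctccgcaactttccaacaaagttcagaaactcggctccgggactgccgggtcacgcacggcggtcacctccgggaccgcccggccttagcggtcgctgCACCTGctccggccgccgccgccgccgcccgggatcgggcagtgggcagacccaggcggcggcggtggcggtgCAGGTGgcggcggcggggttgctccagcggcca
Neurod1, chr2:79456637-79456886, minus strand: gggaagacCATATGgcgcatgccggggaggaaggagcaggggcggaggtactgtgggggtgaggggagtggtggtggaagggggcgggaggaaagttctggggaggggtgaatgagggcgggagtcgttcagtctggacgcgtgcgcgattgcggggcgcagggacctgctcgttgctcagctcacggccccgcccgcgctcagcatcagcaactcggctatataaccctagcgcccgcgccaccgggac
Neurod2, chr11:98329646-98329895, minus strand: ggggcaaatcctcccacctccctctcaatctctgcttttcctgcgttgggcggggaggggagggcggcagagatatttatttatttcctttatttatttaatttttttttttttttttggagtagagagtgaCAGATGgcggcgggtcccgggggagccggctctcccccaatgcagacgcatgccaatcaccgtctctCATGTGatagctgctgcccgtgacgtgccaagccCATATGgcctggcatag
Pax6 inner start site, chr2:105682213-105682462, plus strand: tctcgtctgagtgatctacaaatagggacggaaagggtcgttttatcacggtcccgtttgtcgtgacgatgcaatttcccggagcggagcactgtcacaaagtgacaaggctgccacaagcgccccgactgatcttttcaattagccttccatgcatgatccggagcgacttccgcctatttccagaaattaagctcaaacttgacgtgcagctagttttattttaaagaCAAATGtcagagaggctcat

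Of the 9 genes, 8 had promoter records, 11 in all, and *Insm1* had none. CANNTG reads the same on both strands, and 8 of the 11 sequences (72.7%) held it, against 66.2% of 32851 mouse promoter sequences of the same length. *Neurod2* held 3 E-boxes, at 118, 51 and 17 bases before the start site, and *Barhl2* held 2, at 106 and 33 bases before it. *Neurod1* and the inner *Pax6* sequence each held 1, and *Atoh1* held 0. A match is only a description of the letters. The *Barhl2* sequence had 36 CG dinucleotides, more than 97.4% of all promoter sequences, whose median was 6. *Atoh1* had 14, *Neurod1* 22, *Neurod2* 11 and the inner *Pax6* sequence 15. The *Atoh1* sequence was therefore also above the median in CG dinucleotides, although it had no peak.

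The lists differed far more by replicate than by genotype, and this bears on every value that follows. Knock-in replicates 1 to 4 had 10607, 11268, 5571 and 1266 peaks, against 11409, 7735, 3249 and 1571 peaks in wild type replicates 1 to 4. In replicates 1 and 2 the median peak width was 1144 to 1246 bp for knock-in, against 1065 to 1118 bp for wild type. In replicates 3 and 4 it was 132 to 148 bp for knock-in, against 134 to 147 bp for wild type. Replicates 1 and 2 are called the long lists and replicates 3 and 4 the short lists. In the order of the replicates, 50.2%, 48.4%, 18.7% and 3.23% of all protein-coding genes had a peak within 10 kb in knock-in libraries, against 45.2%, 38.2%, 11% and 4.46% in wild type libraries. The lists hold no read counts, so the depth behind them is unknown. Covered length, the number of base pairs of a gene and its 10 kb flanks that lie under peaks, is given for each library, always in the order of replicates 1 to 4. A length of 0 means that no peak was called there.

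*Pax6* (chr2:105668896-105698410), a paired-box factor expressed in granule cells throughout life, had the most covered sequence of the 9 genes. Its covered length was 15620, 14559, 137 and 0 bp in knock-in libraries, against 12842, 8258, 0 and 0 bp in wild type libraries. Both long knock-in lists were above both long wild type lists, and the short lists were at or near 0. Averaged over the 4 long lists, *Pax6* ranked 13 of all 21887 protein-coding genes by covered length and 21 by the percent of its window that was covered. All 28 of its peaks overlapped the gene. They merged into 4 regions, of which 3 were present in all 4 long lists. The first ran from 0.055 kb before to 11.08 kb after the outer start site, the second from 11.14 to 15.89 kb after it and the last from 18.9 to 21.6 kb after it. The outer start site itself was covered in 1 knock-in library and no wild type library, whereas the inner start site, inside the second region, was covered in both long lists of each genotype. Of the 250 bases printed for the inner site, 114 and 250 were covered in the long knock-in lists, against 125 and 117 in the long wild type lists. The only short-list peak, in knock-in replicate 3, lay in the last region, 20.8 to 20.9 kb after the outer start site. Of the neighbouring genes, *Elp4* overlaps the end of *Pax6*, and no peak of *Pax6* fell on it, while 3 peaks also lay on the long noncoding RNA gene *Pax6os1*. The mark has no strand, so where genes overlap it cannot be assigned to one of them.

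*Meis1* (chr11:18880428-19019651), a homeodomain factor of granule cells and their progenitors, had a covered length of 8682, 9341, 137 and 0 bp in knock-in libraries, against 7670, 4089, 0 and 0 bp in wild type libraries. Here too both long knock-in lists were above both long wild type lists. The covered sequence was not spread over this long gene but lay mostly near its start site and beyond its far end. A region from 2.44 kb before to 5.22 kb after the start site was present in all 4 long lists, and a second, 146 to 148 kb after the start site and so beyond the far end of the gene, was present in all 4 as well. Of the 19 peaks, 10 also lay on *Gm16141*, a long noncoding RNA gene that overlaps *Meis1*. The distal region lies on the long noncoding RNA gene *8430419K02Rik*, and in wild type replicate 2 it held the highest-scoring peak of the *Meis1* window. The other 5 regions were each found in 1 library. Within 2 kb on either side of the start site, 3926 and 3339 bp were covered in long knock-in lists, a mean of 90.8% of that interval, against 2963 and 1154 bp in long wild type lists, a mean of 51.4%. In the same interval, the means of the 7 other genes with a known start site ran from 0 (*Atoh1*) to 74.6% (*Barhl2*) in knock-in libraries and from 0 to 72.8% (*Barhl2*) in wild type libraries.

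*Neurod1* (chr2:79452637-79456636), a basic helix-loop-helix factor needed for granule cell differentiation and survival, had a covered length of 5355, 5983, 156 and 0 bp in knock-in libraries, against 6806, 5875, 0 and 0 bp in wild type libraries. The long lists of the genotypes overlapped. Of its 17 peaks, 11 lay in the flanks, a larger count than the 6 on the gene. A region 1.448 to 4.723 kb before the start site was found in 3 knock-in libraries, against 2 wild type libraries, and held the only short-list peak, in knock-in replicate 3. The region over the gene was in all 4 long lists, but its edge at the start site differed. The peaks on the gene began 523 and 286 bases after the start site in knock-in replicates 1 and 2, against 89 and 360 bases before it in wild type replicates 1 and 2. The start site was thus covered in no knock-in library and in both long wild type lists, and of the 250 bases printed for *Neurod1*, 0 and 144 were covered in long knock-in lists, against 89 and 250 in long wild type lists. A region 4.088 to 5.184 kb after the start site, just beyond the far end of the gene (chr2:79451452-79452548), was present in both long wild type lists and in no knock-in list. Its peak in wild type replicate 2 had a score of 51.31, at the 2.21 percentile of that list, whose lowest score was 50. In wild type replicate 1 its peak was at the 50.4 percentile of the scores. A peak of knock-in replicate 1 began close to the region, at position 79452648. These details of *Neurod1* were singled out after their values were seen and have no test.

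*Neurod2* (chr11:98325415-98329645), a related factor of differentiated neurons, had a covered length of 6623, 6453, 263 and 0 bp in knock-in libraries, against 7536, 4741, 155 and 0 bp in wild type libraries. The knock-in values of the long lists lay between those of wild type. Its region from 0.467 kb before to 4.76 kb after the start site (chr11:98324885-98330112) was found in 3 knock-in and 3 wild type libraries, more libraries than any other region around the 9 genes. In knock-in replicate 2 a single peak of 5228 bp spanned the gene. The highest-scoring peak at *Neurod2* stood at the 96.3 and 81.4 percentile of all peaks of the same list in long knock-in lists, against the 96.9 and 90.6 percentile in long wild type lists. These are ranks of the score that the authors gave each peak. A region 3.931 to 4.979 kb before the start site was present in both long wild type lists and no knock-in list. Its peak in wild type replicate 1 overlaps the neighbouring predicted gene *Gm33099*. Another region, 8.238 to 10.155 kb before the start site, was present in all 4 long lists and lies on *Gm33099*.

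*Etv1* (chr12:38780082-38870483), an ETS factor that is induced by activity in maturing granule cells, had a covered length of 6460, 5462, 267 and 0 bp in knock-in libraries, against 6013, 2889, 0 and 0 bp in wild type libraries. The long lists overlapped, with wild type replicate 2 the lowest. All 18 peaks overlapped the gene. A region from 0.97 kb before to 2.498 kb after the outer start site was present in all 4 long lists, as was one 3.443 to 8.642 kb after it, which also held the peak of knock-in replicate 3. The 4 remaining regions, 25.9 to 45.7 kb into the gene, were each found in 1 library. The outer start site was covered in all 4 long lists, and the inner one (at position 38783711) only in wild type replicate 2.

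*Atoh1* (chr6:64729125-64731245), the proneural factor that defines granule cell progenitors, had no peak within 10 kb in any of the 8 libraries. It was the only one of the 9 genes without one. At this unknown depth the absence of a called peak is not the absence of the mark.

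*Barhl2* (chr5:106452523-106458166), a homeodomain factor of rhombic lip derivatives, was the progenitor gene with the most covered sequence. Its covered length was 5305, 6639, 0 and 0 bp in knock-in libraries, against 6510, 5662, 0 and 139 bp in wild type libraries, and the long lists of the genotypes overlapped. Both of its regions were in all 4 long lists. The one over the start site, from 1.732 kb before to 1.722 kb after it, also held the single peak of wild type replicate 4, and it covered all 250 bases of the CG-rich sequence printed above in each long list. The other lay 3.515 to 7.391 kb after the start site, across the end of the gene. The highest-scoring *Barhl2* peak stood at the 91.0 and 96.4 percentile in long knock-in lists and at the 96.9 and 93.6 percentile in long wild type lists. In covered length *Barhl2* stood among the mature genes, above the other progenitor genes in every long list. Of its 12 peaks, 4 also lay on the long noncoding RNA gene *Gm33151*.

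*Barhl1* (chr2:28907680-28917984), a homeodomain factor that acts downstream of Atoh1 in granule neurons, had a covered length of 2346, 2611, 0 and 0 bp in knock-in libraries, against 2964, 0, 0 and 0 bp in wild type libraries. Wild type replicate 1 was the highest of the 8 libraries and the only wild type library with a peak. The peaks lay in 1 region, from 1.953 kb before to 1.279 kb after the start site at position 28916668, and the second annotated start site was under none. Its highest-scoring peak stood at the 53.3 and 49.0 percentile in long knock-in lists, against the 83.03 percentile in wild type replicate 1. *Insm1* (chr2:146221997-146225020), a zinc-finger factor expressed briefly as neural progenitors turn into neurons, had a covered length of 1237, 1116, 0 and 0 bp in knock-in libraries, against 0 bp in each wild type library. Its peaks formed 1 region (chr2:146221915-146223565) and stood at the 55.2 and 53.4 percentile of scores in the long knock-in lists. No peak of *Barhl1* fell on its neighbour *Ddx31*, 2105 bp away, and none of *Insm1* on *Cfap61*, 6962 bp away. The *Insm1* region was the only region around the 9 genes present in both long knock-in lists and no wild type list.

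**Figure D1:**
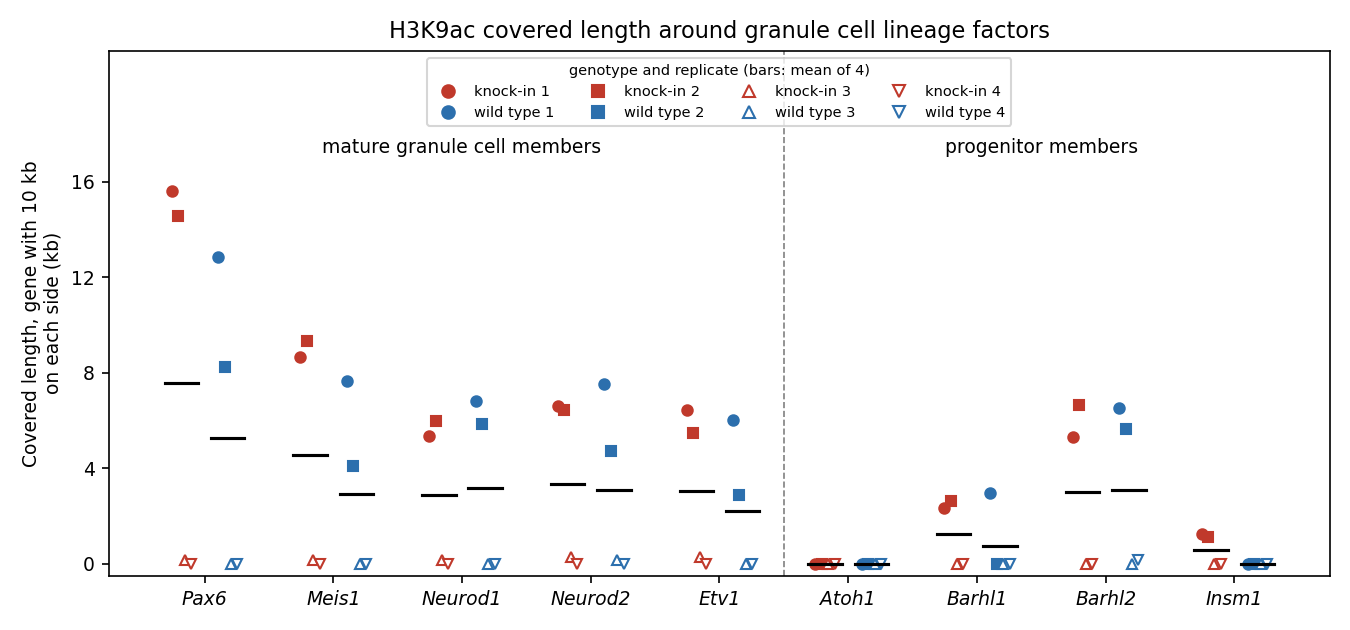
Covered length in kb (vertical axis) around each of the 9 genes, with knock-in libraries in red to the left of wild type libraries in blue; filled symbols are replicates 1 and 2, open symbols replicates 3 and 4, and black bars the mean of 4 libraries. *Pax6* reached 15620 bp in knock-in replicate 1 and 12842 bp in wild type replicate 1, *Atoh1* was at 0 in all 8 libraries, and the open symbols lay at or near 0 for every gene.

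**Figure D2:**
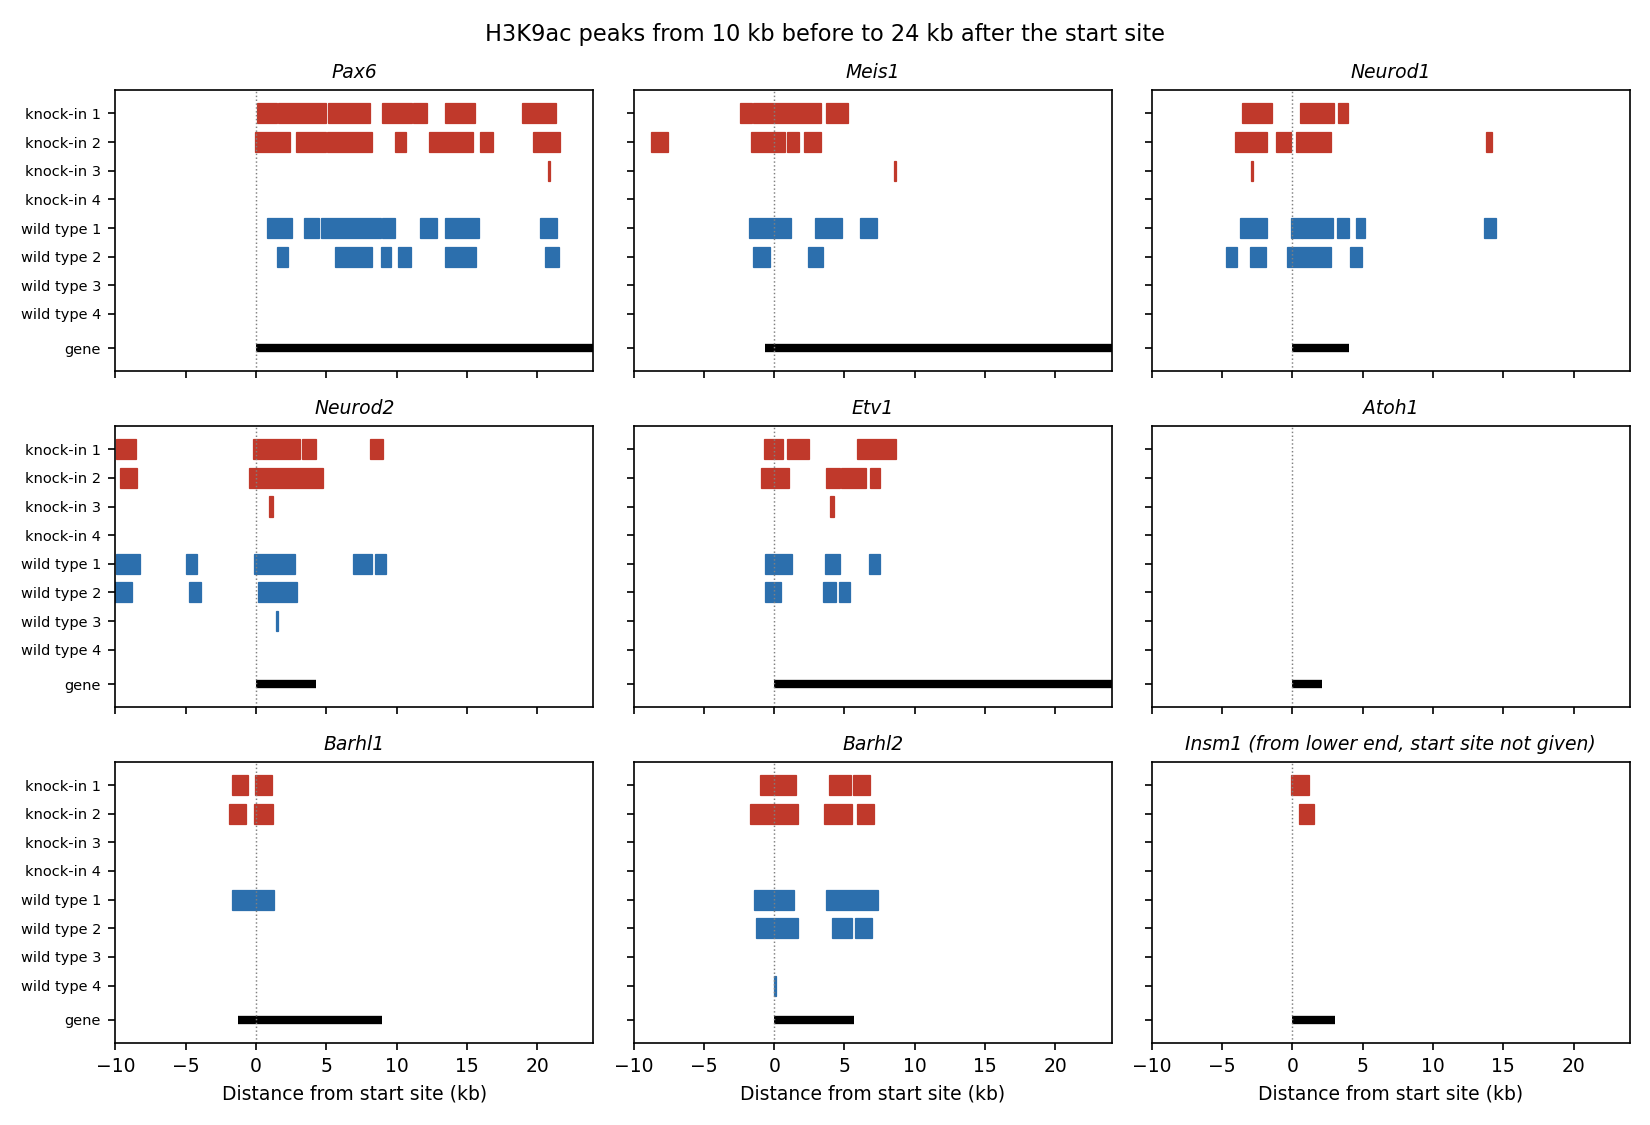
Peaks of each library (rows) against the distance in kb from the start site, with the direction of transcription to the right; the black bar is the gene, cut at 24 kb. *Insm1* is drawn by rising coordinate from its lower end, the outer start site is used for *Pax6* and *Etv1*, and the regions of *Etv1* and *Meis1* farther than 24 kb are not drawn. Peaks stand near the start sites of the 7 genes with a known start site other than *Atoh1*, which is empty, and the region near 4 to 5 kb after the *Neurod1* start site is seen in wild type rows alone.

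Covered lengths per window depend on gene length, so genes were ordered by the percent of their window that was covered, averaged over the 4 long lists. *Neurod2* came first with 26.2%, followed by *Pax6* with 25.9%, *Neurod1* with 25.0% and *Barhl2* with 23.5%. These 4 genes could not be put in an order beyond the spread between libraries. *Neurod2* had 27.3% and 26.6% in long knock-in lists, against 31.1% and 19.6% in long wild type lists. *Barhl2* had 20.7% and 25.9% in long knock-in lists, against 25.4% and 22.1% in long wild type lists. A gap then followed to *Barhl1* with 6.53%, *Etv1* with 4.72%, *Meis1* with 4.68%, *Insm1* with 2.55% and *Atoh1* with 0. The highest long list of *Barhl1*, 9.78% in wild type replicate 1, was below the lowest of *Neurod2*, *Pax6*, *Neurod1* and *Barhl2*, 16.7% for *Pax6* in wild type replicate 2. *Barhl1*, *Etv1*, *Meis1* and *Insm1* overlapped one another. *Etv1* and *Meis1* are long genes whose windows are mostly uncovered, and by covered length alone they ranked 147 and 44 of all protein-coding genes.

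The genes of mature granule cells had more covered sequence than the progenitor genes, with *Barhl2* as the exception. All 5 of them had a peak in each of the 4 long lists and in knock-in replicate 3, whereas 3 and 3 of the 4 progenitor genes had one in the long knock-in lists and 2 and 1 in the long wild type lists. The median covered length of the mature genes was 6623, 6453, 156 and 0 bp in knock-in libraries, beside 1791.5, 1863.5, 0 and 0 bp for the progenitor genes. In wild type libraries the mature median was 7536, 4741, 0 and 0 bp, beside 1482, 0, 0 and 0 bp for the progenitor genes. The mature median was above the progenitor median in each long list of both genotypes. The median over all protein-coding genes was 415 bp in knock-in replicate 1 and 0 in the other 7 libraries.

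The difference, mature minus progenitor, averaged 2546.5 ± 2717 bp over the 8 libraries (SD, n = 8). It was 2394 ± 2677 bp for knock-in, against 2699 ± 3162 bp for wild type (SD, n = 4 each). In the long lists it was 4710.5 ± 171 bp for knock-in, against 5397.5 ± 928 bp for wild type (SD, n = 2 each). The difference between the genotypes was smaller than the spread between libraries. As a percent of the window, the medians in long knock-in lists were 22.3% and 24.9% for mature beside 6.56% and 6.73% for progenitor genes. In long wild type lists they were 25.9% and 16.7% for mature beside 4.89% and 0% for progenitor genes. The percent does not take out gene length, since it is low for long genes with mostly uncovered windows. On this scale the long mature genes *Etv1* (4.72%) and *Meis1* (4.68%) were below the progenitor gene *Barhl1* (6.53%), averaged over the long lists. The contrast was smaller close to the start site, and its direction there depended on *Insm1* and on the start sites taken. Within 2 kb on either side of it, with *Insm1* measured from its lower end because no start site is given for it, the mature and progenitor medians were 2220 and 1791.5 bp in knock-in replicate 1, 2468 and 1863.5 bp in knock-in replicate 2, 2113 and 1411 bp in wild type replicate 1, and 1175 and 0 bp in wild type replicate 2. Without *Insm1* the progenitor median was 2346 bp in knock-in replicate 1, 2611 bp in knock-in replicate 2, 2822 bp in wild type replicate 1 and 0 bp in wild type replicate 2. The mature median was then below the progenitor median in 3 of the 4 long lists. These intervals used the outer start sites of *Pax6* and *Etv1*. At the outer *Pax6* site 1854 and 2056 bp were covered in long knock-in lists, against 1231 and 487 bp in long wild type lists. At the inner *Pax6* site it was 2724 and 3162 bp in knock-in, against 3347 and 2118 bp in wild type. Taking that site raises the mature median, so the direction of the contrast around known start sites was not settled. With every list cut to its 1266 highest-scoring peaks, the medians of both stages were 0 in every library except wild type replicate 1, where they were 2869 bp for mature and 0 for progenitor genes. No p-value is given for a score over genes chosen by name.

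Other genes of each stage, which are not among the 9, lay on the same sides. These lists too were chosen with earlier results of these data known, so they are no independent support. All 18 other mature granule cell genes had a peak in each long list, with a median of 5719.5 and 5757 bp in long knock-in lists and 5596 and 4732 bp in long wild type lists. *Zic2*, a zinc-finger factor of the granule lineage, was the largest, with 18342, 15711, 1446 and 0 bp in knock-in libraries, against 17165, 15732, 917 and 377 bp in wild type libraries. *Nfix*, a nuclear factor of granule cell maturation, followed with 17300, 20837, 581 and 0 bp in knock-in libraries, against 16234, 11779, 150 and 0 bp in wild type libraries. Of the 18 other progenitor and rhombic lip genes, 10 and 7 had a peak in long knock-in lists and 8 and 5 in long wild type lists, that is 55.6% and 38.9% in knock-in, against 44.4% and 27.8% in wild type. These shares were above that of all genes in knock-in replicate 1 and below it in the other 3 long lists. *Ptch1*, the Sonic hedgehog receptor, had the most covered sequence of these, with 6037, 6040, 793 and 0 bp in knock-in libraries, against 5699, 5868, 591 and 478 bp in wild type libraries. The hedgehog co-receptor *Boc* had 4136, 5144, 64 and 0 bp in knock-in libraries, against 6060, 2244, 343 and 0 bp in wild type libraries. Of these 18, 6 had no peak in any library, among them the hedgehog effectors *Gli1* and *Gli2*, *Mycn* and the cell-cycle kinase *Cdk1*.

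**Figure D3:**
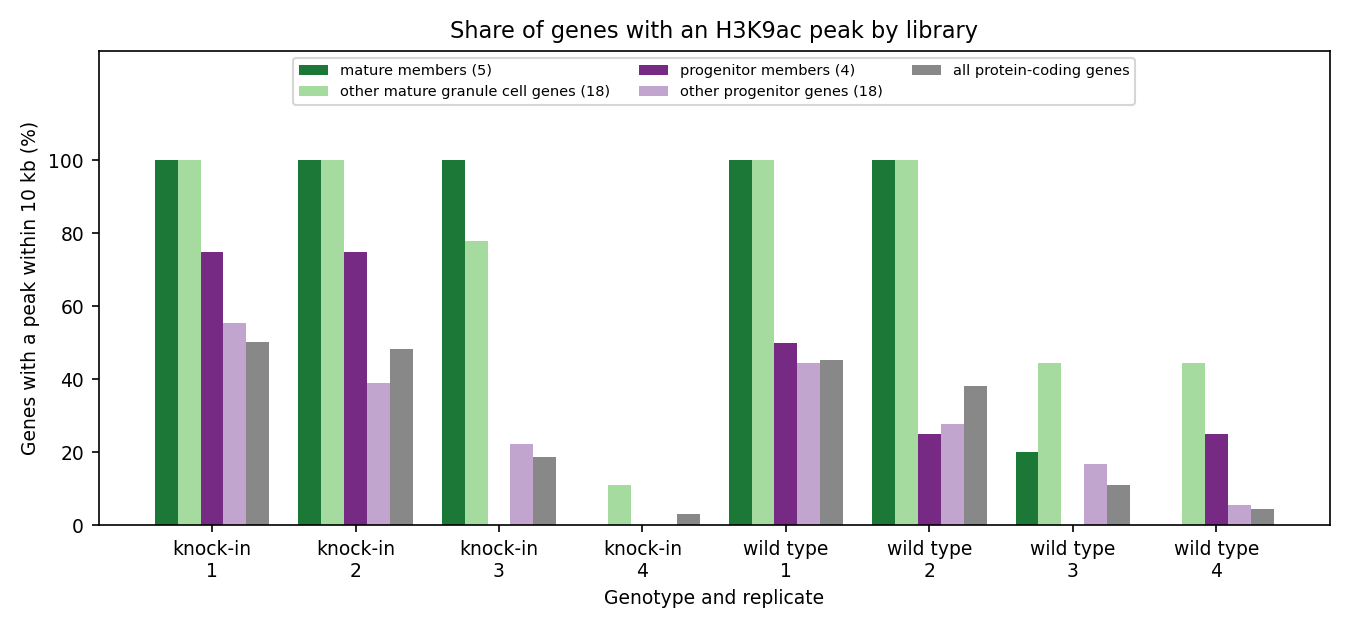
Percent of genes with a peak within 10 kb (vertical axis, from 0) in each library, for the mature factors, other mature granule cell genes, the progenitor factors, other progenitor genes and all protein-coding genes. Both mature lists stand at 100% in the long lists of each genotype, and the other progenitor genes lie between 27.8% and 55.6% there.

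The labelled tissue was checked against marker genes. All 5 granule cell markers had a peak in each long list. They are also among the other mature granule cell genes described above, so this count is not a separate result. Of 10 Purkinje cell markers, 4 and 5 had one in long knock-in lists, against 4 and 5 in long wild type lists, and *Pcp2*, *Car8*, *Pvalb* and *Ppp1r17*, defining markers of that cell, had none in any library. Inhibitory interneurons were represented by 7 markers, with peaks at 1 and 1 of them in knock-in, against 0 and 2 in wild type. Of 3 markers of unipolar brush cells it was 2 and 2 in knock-in, against 1 and 1 in wild type, and of 8 astrocyte and Bergmann glia markers 4 and 4 in knock-in, against 3 and 2 in wild type. Of 7 oligodendrocyte markers it was 2 and 2 in knock-in, against 1 and 0 in wild type. Of 6 microglia markers it was 1 and 2 in knock-in, against 1 and 1 in wild type, and of 4 vascular markers 0 and 0 in knock-in, against 1 and 0 in wild type. No marker gene had an adjusted p under 0.05 between the genotypes, but neither did any other gene, so this sets no limit on a difference. The Purkinje cell marker *Foxp2* had a peak in 1 knock-in library, against 3 wild type libraries. Its unadjusted p was 0.0206 in the conditional exact test described below, and 88 genes were under 0.05 in that test. The astrocyte, oligodendrocyte and unipolar brush cell counts were higher in the long knock-in lists, as was the share of all genes with a peak. Their part in the values of the 9 genes was not tested.

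The study's design compares symptomatic knock-in mice with wild type litter mates, and none of the 9 genes differed between them by more than the spread between libraries. Mean covered length of *Pax6* was 7579 ± 8683 bp in knock-in libraries, against 5275 ± 6372 bp in wild type libraries (SD, n = 4 each), a difference of 2304 bp (two-sided exact permutation p = 0.571). For *Meis1* it was 4540 ± 5171 bp in knock-in, against 2940 ± 3696 bp in wild type libraries (exact permutation p = 0.571). *Etv1* had 3047 ± 3391 bp in knock-in, against 2225.5 ± 2869 bp in wild type libraries (exact permutation p = 0.743). The means of the NeuroD factors were closer. *Neurod2* had 3335 ± 3701 bp in knock-in, against 3108 ± 3681 bp in wild type libraries (exact permutation p = 0.914), and *Neurod1* had 2873.5 ± 3239 bp in knock-in, against 3170 ± 3680 bp in wild type libraries (exact permutation p = 0.83). *Barhl2* was also close, with 2986 ± 3491 bp in knock-in, against 3078 ± 3491 bp in wild type libraries (exact permutation p = 0.83). For the remaining progenitor genes, *Barhl1* had 1239 ± 1435 bp in knock-in, against 741 ± 1482 bp in wild type libraries (exact permutation p = 1). *Insm1* had 588 ± 681 bp in knock-in libraries, against 0 bp in each wild type library (exact permutation p = 0.429). Benjamini-Hochberg adjusted p over all 13147 genes with a peak was 1 for each of the 8. With 4 libraries against 4 the smallest p the exact test can give is 0.0286. No gene can pass adjustment at that p unless very many genes reach it, so a large difference at single genes would be missed. Within same-numbered pairs the spread between long and short lists drops out, but that equal numbers are pairs is an assumption. *Pax6*, *Meis1* and *Etv1* were higher in knock-in in replicates 1, 2 and 3 and had no peak in replicate 4 of either genotype (exact paired permutation p = 0.25 each), and *Insm1* was higher in knock-in in both pairs with a peak (exact paired permutation p = 0.5). That was 4 of 8 genes (50%) with knock-in lower in no pair, beside 47.2% of all genes with a peak, and 0 of 8 with wild type lower in no pair, beside 10.3%. With 3 and 2 pairs that differ, 0.25 and 0.5 are the smallest exact paired p possible. Even 4 pairs in 1 direction give no exact paired p under 0.125. Much of the unpaired spread lay between long and short lists, since no gene of the 9 had more than 267 bp in a short list.

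Across all genes, covered length was called for 0 of 13147 genes (0%) by the permutation test with adjusted p under 0.05, and 2 genes (0.0152%) had an unadjusted p under 0.05. The number of libraries with a peak, tested by a conditional exact test that allows for the length of each list, was called for 0 of 13046 genes (0%), and 88 of them had p under 0.05 before adjustment. Fisher's exact test also called 0, with 2 under 0.05 unadjusted. For the 9 genes, the conditional exact test gave an unadjusted p of 0.305 for *Barhl2*, 0.416 for *Insm1* and 1 for the other 6 with a peak. *Pax6*, *Meis1*, *Neurod1*, *Etv1*, *Barhl1* and *Insm1* had a peak in more knock-in than wild type libraries, *Barhl2* in more wild type libraries, and *Neurod2* in 3 of each. That was 6 of 8 genes (75%) on the knock-in side, beside 44.3% of all genes with a peak, and 1 of 8 (12.5%) on the wild type side, beside 15%. For *Pax6*, *Meis1*, *Neurod1* and *Etv1* the extra library was knock-in replicate 3, whose list is longer than that of wild type replicate 3.

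Within the long lists alone, both knock-in values were above both wild type values for *Pax6*, *Meis1* and *Insm1*, which was 3 of 8 genes (37.5%), beside 32.2% of 12714 genes with a peak in a long list. Both wild type values were higher for 0 of 8, beside 2.91% of those genes. Both shares were near the background of all genes. An exact test of 2 libraries against 2 cannot give a p under 0.333. The long-list mean of *Pax6* was 15089.5 bp in knock-in, against 10550 bp in wild type, and that of *Meis1* was 9011.5 bp in knock-in, against 5879.5 bp in wild type. Wild type replicate 2 has a shorter list than the other 3, and it gave the lowest long-list value of *Pax6*, *Meis1*, *Neurod2* and *Etv1*. With every list cut to the same number of peaks, the difference over all 8 libraries turned to -919.8 bp for *Pax6* and -740.8 bp for *Meis1*, and with only the peaks above the median score of each list it was -83.8 bp for *Meis1*. The sign of the difference over all 8 libraries rested on single libraries. *Pax6* was -376 bp without knock-in replicate 1 and -22.7 bp without knock-in replicate 2, *Etv1* was -316 bp without knock-in replicate 1, and *Meis1* was -0.0833 bp without knock-in replicate 2.

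By region, 29 of the 30 merged regions around the 9 genes were present in at least 1 long list. Of these, 13 (44.8%) were in all 4 long lists, beside 32.9% of 16659 regions genome-wide. One region, that of *Insm1* (3.45%), was in both long knock-in lists and no long wild type list, beside 5.4% of all regions. The regions after *Neurod1* and before *Neurod2* (6.90%) were in both long wild type lists and no long knock-in list, beside 1.04% of all regions. They are 2 regions, singled out after their values were seen, and neither was tested. The one after *Neurod1* was near the lowest score of the list in wild type replicate 2 and at the 50.4 percentile in wild type replicate 1. The one before *Neurod2* was at the 38.2 and 49.0 percentile in wild type replicates 1 and 2.

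Percentiles of covered length among all protein-coding genes of the same library put each gene on a scale within its list. *Pax6* was at the 99.96 and 99.95 percentile of covered length in long knock-in lists and at the 99.93 and 99.93 percentile in long wild type lists. The 5 mature genes lay between 98.9 and 99.96 in long knock-in lists and between 97.4 and 99.93 in long wild type lists. *Barhl2* was at 98.9 and 99.6 in long knock-in lists, against 99.6 and 99.7 in long wild type lists. *Barhl1* was lower, at 87.6 and 91.0 in long knock-in lists, against 94.0 in wild type replicate 1, with no peak in wild type replicate 2. *Insm1* was at 66.0 and 65.1 in long knock-in lists, and had no peak in either long wild type list. The places of *Barhl1* and *Insm1* therefore differed between libraries far more than those of the mature genes and *Barhl2*, which were close to the top of the scale.

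**Figure D4:**
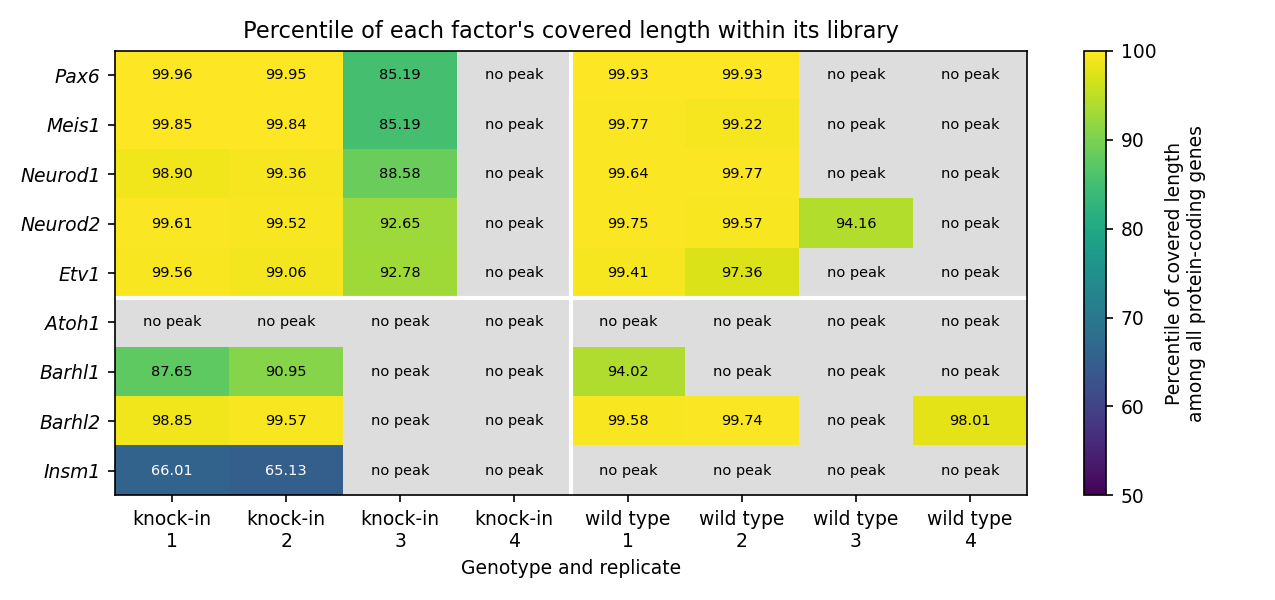
Percentile of the covered length of each gene (rows, mature genes above progenitor genes) among all protein-coding genes of the same library (columns, knock-in left of wild type), with grey where the gene had no peak. In replicates 1 and 2 the mature genes and *Barhl2* stand above 97 in both genotypes, and *Atoh1* is grey throughout.

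The protein-coding genes whose covered lengths over the 8 libraries were most like those of *Pax6*, by the smallest sum of absolute differences, were *Zic1*, *Zic4* and *Srcin1*. *Zic1*, a zinc-finger factor of the granule lineage, differed from *Pax6* by 4529 bp in sum, with 13408, 12780, 351 and 0 bp in knock-in libraries, against 12592, 8332, 0 and 0 bp in wild type libraries. Its neighbour *Zic4* differed by 6967 bp and *Srcin1* by 7201 bp. The windows of *Zic1* and *Zic4* overlap, so their values share peaks.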

How the data were processed

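The 4 knock-in and 4 wild type H3K9ac ChIP-seq libraries of cerebellum each had 1 deposited peak list. The tool Bowtie2 and the build mm10 are named per the submitters' processing notes. The file headers name MACS in Galaxy as the peak caller, for each library separately. Its version, its settings and any input control were not given in the sources used here. Each peak's score is the authors' own deposited value, on an unstated scale. It entered the results as a rank within a list, apart from the score of a *Neurod1* peak that is given beside the lowest of its list. Groups and replicate numbers come from the sample titles. Replicates are not said to be separate animals, so a p-value reflects the spread of these libraries, which may be technical.

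RefSeq gene positions on GRCm38.p6, the same assembly as mm10, were matched by symbol. All 9 members matched. The table gives no strand, so start sites and strands came from the promoter records. Covered length is the union of peaks, clipped to the gene and 10 kb on each side. The genotypes' covered lengths went into an exact permutation test, two-sided, over 70 assignments. The numbers of libraries with a peak went into a conditional exact test with detection odds per library from a Rasch model. Each had Benjamini-Hochberg adjustment over all genes it tested and a threshold of 0.05. These were 13147 genes for covered length and 13046 for the conditional exact test, which leaves out genes with a peak in every library. Python 3.11.15, numpy 2.4.6 and scipy 1.17.1 were used, and both tests were tested on simulated data. The members and gene lists were chosen with earlier results of these data known. Named by rule beside the members are protein-coding genes within 10 kb, the 3 genes most like the member with the most covered sequence, and the 2 largest genes of each stage list. Outside this rule, noncoding neighbours were named, and so were listed genes without a peak and *Foxp2*, after their values were seen.

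Same-numbered libraries deviated together (correlations of deviations 0.623, 0.543, 0.857 and 0.889), and the numbers were taken as pairing them. Differently numbered libraries within the long or the short lists did so about as much. Knock-in replicate 1 with wild type replicate 2 gave 0.569, and knock-in replicate 2 with wild type replicate 1 gave 0.684. Knock-in replicate 3 with wild type replicate 4 gave 0.853, and knock-in replicate 4 with wild type replicate 3 gave 0.884. The correlations thus do not show that equal numbers are pairs, and the pairing is an assumption. Alternatives were other windows, the peaks above the median score of each list, lists of equal length, peaks lying mostly in the window, other scales, leaving out each library, replicates 1 and 2 alone, and the replicate block.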

Additional observations from a re-analysis of the deposited data

Results flagged for a closer look

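The covered length of *Barhl1* in wild type libraries was 2964 bp in replicate 1 and 0 in the other 3, so 1 library stood apart from its group. In knock-in libraries it was 2346, 2611, 0 and 0 bp. With 4 libraries, most of them at 0, any single list with a peak is singled out in this way. It was 1 of 15 groups examined. The rule's usual rate by chance, about 1 in 20, does not apply to groups with so many values at 0.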

How the results depend on the processing

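No gene was called under any alternative, and the lowest adjusted p of a member was 0.940. The fit with the replicate block, whose smallest possible exact p is 0.125, called 0 genes and changed no call. The sign of the difference in covered length, knock-in minus wild type, was not stable for 7 members, and the cause was not tested. With only the peaks above the median score of each list it was -459.8 bp for *Barhl1* and -83.8 bp for *Meis1*. With lists of equal length it was -740.8 bp for *Meis1*, -539.5 bp for *Neurod2* and -919.8 bp for *Pax6*. *Barhl2* was at 56.2 bp on the gene body and at 59.8 bp with 50 kb flanks. On the log2 scale *Neurod1* was at 1.74, and as a percentile it was at 10.9 and *Neurod2* at -0.267. Leaving out 1 library at a time gave -1309 to 1052 bp for *Barhl2*, -316 to 2084 bp for *Etv1*, -0.0833 to 3177 bp for *Meis1*, -1354 to 915 bp for *Neurod1*, -869 to 1703 bp for *Neurod2* and -376 to 4830 bp for *Pax6*. The difference in the percent of libraries with a peak turned to -25 for *Meis1* and *Neurod1* with lists of equal length. *Insm1* kept its sign in every alternative that gave it a value. Mature minus progenitor covered length was 359 bp with lists of equal length. Around the start site, with the outer sites of *Pax6* and *Etv1*, it was 364 bp with *Insm1* measured from its lower end. Without *Insm1* it was 24.6 bp there, and 3 of the 4 long lists were below 0. It was 1642 to 5054 bp in the others. As a percentile it was 25.0 points and as a percent of the window 8.99 points, which are other scales. The percent of the window and the start-site intervals were chosen after seeing the data. Depth is unknown, so a missing peak in a short list sets no limit on the mark.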
